A study of Mus musculus with 7 samples.

Results

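In newborn mouse hearts with a cardiomyocyte-specific loss of 2 retinoid X receptors, 2 enzymes that feed carbon into or out of the tricarboxylic acid (TCA) cycle changed in opposite directions, and no transcript of the core cycle passed the test. Me1, the cytosolic malic enzyme, fell 2.71-fold and Pcx, pyruvate carboxylase, rose 2.09-fold. Of all genes measured, 4.21% passed the test. The genes examined were the 33 genes of pyruvate oxidation, the TCA cycle, the malate-aspartate shuttle and anaplerosis named in a fixed list, and all 33 were present by symbol in the table, which holds 13788 genes. They were read in 5 role groups: 6 genes of pyruvate entry, 16 of the core cycle, 3 NADP-dependent or cytosolic isoforms, 3 of the malate-aspartate shuttle and 5 anaplerotic genes. The list had been drawn up with earlier results of these data known.

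RNA came from whole hearts of C57BL/6 mice at postnatal day 0. The 3 wild-type hearts (WT) carry replicate numbers 1, 2 and 28. They were set against 4 hearts of newborns lacking the receptor genes Rxra and Rxrb in cardiomyocytes (RXRab-/-, labelled edKO), with replicate numbers 5, 6, 15 and 33. The labels state neither the Cre driver nor the sex or litter of the animals, and a cardiomyocyte-specific deletion leaves both receptors in the other cells of the heart. By its title the study concerned γ-linolenic acid in milk and how the metabolism of the heart matures.

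Pyruvate from glycolysis or lactate enters mitochondria through a carrier made of the MPC1 and MPC2 proteins, and the pyruvate dehydrogenase complex turns it into acetyl-CoA. Citrate synthase joins acetyl-CoA to oxaloacetate, and the cycle oxidises the product back to oxaloacetate while reducing NAD and FAD for the respiratory chain. Anaplerotic enzymes such as pyruvate carboxylase refill the pool of cycle intermediates, malic enzymes link malate with pyruvate, and the malate-aspartate shuttle carries reducing equivalents from the cytosol into mitochondria. Around birth the heart moves from glucose and lactate towards fatty acids as fuel, and both routes meet at acetyl-CoA. The retinoid X receptors (RXR) pair with other nuclear receptors on DNA, PPARs among them.

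Levels are normalised reads per 1000000 as deposited, with the SD over libraries, n = 3 WT and n = 4 edKO throughout. Differences are edKO minus WT on the log2(value + 1) scale from limma, a linear model fitted over all 13788 genes, and a gene was called at a Benjamini-Hochberg adjusted p under 0.05. Reads recovered from the table came to between 12108464 and 24912403 per library, and each member had between 124 and 47323 reads in each library. Across all genes, 580 (4.21%) were called, 287 higher (2.08%) and 293 lower (2.13%) in edKO. The deleted genes did not pass: Rxra had a mean of 61.6 ± 1.99 (WT) against 66.1 ± 6.74 (edKO), and Rxrb one of 48.2 ± 3.18 against 38.9 ± 4.00 (limma adjusted p = 0.632 and 0.139). The Rxrb groups did not overlap (45.5 to 51.7 in WT, 34.2 to 44.0 in edKO), and Rxrb was called lower without edKO replicate 33 (adjusted p = 0.044) and with library weights (0.0344), within a range of 0.0344 to 0.383. The receptor gene Rxrg, which the labels do not name as deleted, fell from 2.86 ± 0.522 to 0.878 ± 0.441 (limma adjusted p = 0.0291). Leaving out any 1 of the 3 WT libraries, or edKO replicate 5 or 15, ended that call (up to 0.147), as did edgeR and voom. Which exons were deleted is not stated and other cells keep both genes, so these levels over whole genes do not test the genotype labels. All 8 cardiomyocyte markers were measured, summing to between 45890 and 53981 in WT and between 47849 and 50136 in edKO, and none was called.

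Of the 33 genes, 1 was higher, 1 was lower and 31 did not pass. That share of calls stood beside 4.21% for all genes. The median difference over the 33 genes was -0.03, against -0.0036 over the table. At an unadjusted limma p under 0.05 there were 7 of the 33 genes, beside 19.2% of all genes. The WT and edKO libraries did not overlap for 8 of them (24.2%), beside 17.4% of all genes. Of these, 6 were lower and 2 were higher in edKO, beside 9.04% and 8.41% of all genes. Both called genes belonged to the anaplerotic group.

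**Figure D1:**
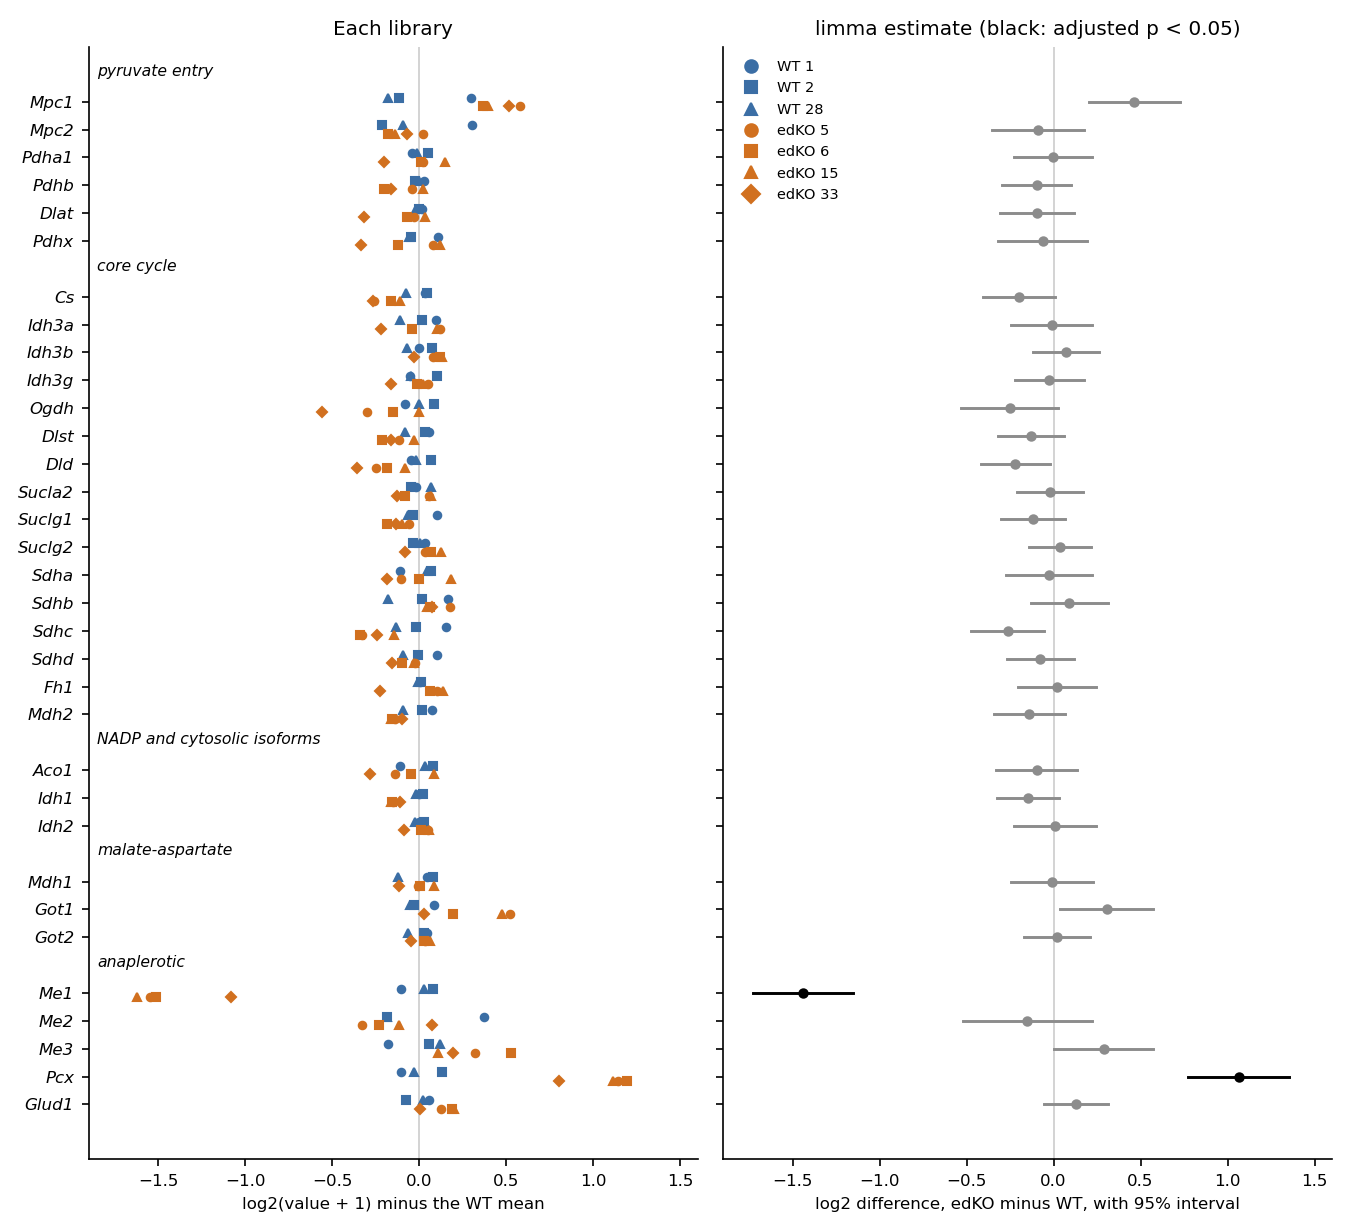
Left, log2(value + 1) of each of the 33 genes in each library minus the WT mean of that gene, by role group (blue WT, orange edKO). Right, the limma difference, edKO minus WT, with its 95% interval; Me1 at -1.44 and Pcx at 1.06 are the 2 genes past the threshold, and the 16 core cycle genes lie between -0.26 and 0.09.

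Me1 makes pyruvate and NADPH from malate in the cytosol, and its NADPH serves fatty acid synthesis. It stood at 65.2, 74.0 and 71.3 in WT replicates 1, 2 and 28, and at 23.3, 24.0, 22.1 and 32.6 in edKO replicates 5, 6, 15 and 33. All 4 edKO libraries lay far below the lowest WT library, and edKO replicate 33 was the highest of the 4. The group means were 70.2 ± 4.51 and 25.5 ± 4.78 (limma log2 difference -1.44, SE 0.13, adjusted p = 0.00014). The call held in all 19 other fits, with differences between -1.56 and -1.31. Of the 61-nt windows of Me1 transcripts, 24.2% also occur in transcripts of other genes, most of them of the processed pseudogene Gm7049, so the origin of part of these reads is uncertain.

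Pcx carboxylates pyruvate to oxaloacetate inside mitochondria and is the main anaplerotic entry from pyruvate. Its WT libraries held 9.90, 11.9 and 10.5, and its edKO libraries 24.9, 25.8, 24.3 and 19.5. The lowest edKO library, replicate 33, was still well above the highest WT library. Pcx rose from 10.8 ± 1.00 to 23.6 ± 2.83 (limma log2 difference 1.06, SE 0.13, adjusted p = 0.00121). It was called in all 19 other fits, with differences between 0.86 and 1.15, and none of its transcript windows occurs in another gene. Both edKO replicate 33 values, for Me1 and Pcx, were the ones nearest to WT among the 4 edKO libraries.

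The promoter windows of these 2 called genes are shown so that the sequence at the start of the transcripts can be read beside their values. They are RefSeq windows on GRCm38.p6 of 300 bases, 250 before to 50 after a transcript start, in the direction of the gene, and 30 of the 33 genes matched the table by symbol. Me1 and Pcx each have 2 windows. For Me1 the window at the upstream start is printed, and for Pcx both. The other Me1 window, chr9:86687228-86687527 on the minus strand, held no match and is not printed. Capitals mark matches, on either strand, to GGTCANAG, AGGTCA or TGACNNNGC.
Me1, chr9:86695865-86696164, minus strand: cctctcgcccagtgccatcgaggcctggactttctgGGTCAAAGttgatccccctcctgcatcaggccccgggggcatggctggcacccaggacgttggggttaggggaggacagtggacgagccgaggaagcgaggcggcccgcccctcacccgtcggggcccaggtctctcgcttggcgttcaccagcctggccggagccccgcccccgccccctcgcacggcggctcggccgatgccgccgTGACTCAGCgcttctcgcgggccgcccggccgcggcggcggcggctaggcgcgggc
Pcx upstream start, chr19:4510222-4510521, plus strand: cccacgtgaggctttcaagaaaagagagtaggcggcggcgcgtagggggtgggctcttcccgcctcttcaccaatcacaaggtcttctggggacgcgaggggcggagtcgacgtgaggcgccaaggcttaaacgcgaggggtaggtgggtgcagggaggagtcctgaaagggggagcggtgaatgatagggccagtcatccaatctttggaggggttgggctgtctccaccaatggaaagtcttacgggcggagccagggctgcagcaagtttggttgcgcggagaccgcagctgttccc
Pcx downstream start, chr19:4594069-4594368, plus strand: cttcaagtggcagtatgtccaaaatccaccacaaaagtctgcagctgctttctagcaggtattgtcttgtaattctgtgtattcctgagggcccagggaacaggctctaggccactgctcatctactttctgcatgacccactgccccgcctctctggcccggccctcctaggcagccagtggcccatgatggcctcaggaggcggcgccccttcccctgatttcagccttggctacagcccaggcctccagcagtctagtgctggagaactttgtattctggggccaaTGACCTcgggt

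In this Me1 window GGTCANAG, the inner part of the DR1 element (AGGTCA, any base, AGGTCA) that PPAR and RXR bind as a pair, matched from base 37 on. A PPAR and RXR element has been described in the malic enzyme promoter of the rat. TGACNNNGC, the core of the antioxidant response element, matched from base 245 on. In the downstream Pcx window AGGTCA, the hexamer that many nuclear receptors bind, matched on the opposite strand from base 290 on, and the upstream Pcx window held no match. The whole DR1 matched in no window of the 30 genes and in 0.0396% of the 32851 windows of the table. GGTCANAG matched in 3 of 30 genes (Idh3b, Me1 and Sucla2), beside 6.08% of all genes with a window, TGACNNNGC in 7 of 30 beside 14.0%, and AGGTCA in 10 of 30 beside 18.1%. A match overlaps another motif wherever a longer motif contains a shorter, as the DR1 does both other receptor motifs. Of other elements known from mitochondrial genes, TCAAGGTCA, bound by estrogen-related receptors, matched in Sdhd alone among the 30 (0.466% of all genes), and the NRF1 element (GCGCA, any base, GCGC) in Dld, Sdha, Sdhd and Sucla2 (5.19%). The motifs were chosen after the values and the Me1 window had been seen, and a match is a description of letters only.

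The other malic enzymes and glutamate dehydrogenase did not pass. Me3, a mitochondrial malic enzyme that uses NADP, had 19.5, 23.1 and 24.2 in WT and 27.96, 32.4, 24.0 and 25.5 in edKO. Its log2 difference by limma was 0.29 (95% interval 0.0038 to 0.57, adjusted p = 0.254). Its groups overlapped through edKO replicate 15, which lay just under WT replicate 28. Me2, the mitochondrial malic enzyme that uses NAD, had a mean of 14.2 ± 3.57 against 12.5 ± 1.66 (limma adjusted p = 0.673), with a 95% interval of the log2 difference from -0.52 to 0.22. Me1 was 3.56 to 6.10 times the Me2 level in the WT libraries and 1.73 to 2.21 times it in the edKO libraries. Glud1, which releases 2-oxoglutarate from glutamate, was the most abundant of the 5 genes per length. It had 153, 139 and 149 in WT and 160.4, 168, 169 and 148 in edKO, with overlap (limma log2 difference 0.13, interval -0.06 to 0.31, adjusted p = 0.439).

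**Figure D2:**
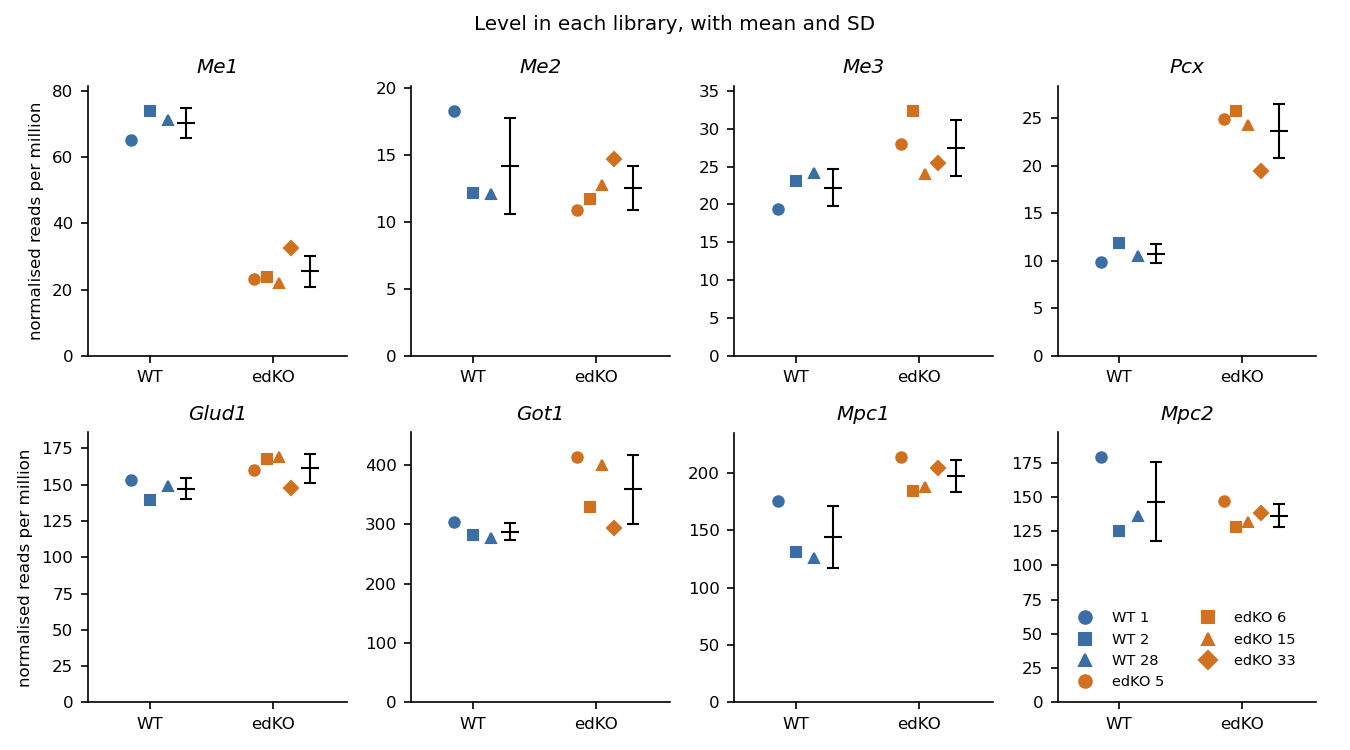
Normalised reads per 1000000 of 8 genes in each library (points), with the mean and SD of each group (black), on axes from 0. The 4 edKO libraries lie between 22.1 and 32.6 for Me1 and between 19.5 and 25.8 for Pcx, away from the WT libraries, and for Mpc1 they lie above WT without a call.

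In the core cycle none of the 16 genes was called, beside 4.21% of all genes. Of the 16 differences 12 were negative and 4 positive, and their median was -0.05. The differences ran from -0.26 to 0.09, and the 95% intervals of all 16 lay between -0.53 and 0.31. A fall beyond 1.45-fold or a rise beyond 1.24-fold lay outside the interval of each of these genes. By edgeR, DESeq2 and limma voom on the recovered reads the core cycle likewise held no call. Sdhc and Dld, 2 of its 16 genes, were under an unadjusted limma p of 0.05, beside 19.2% of all genes. The 16 levels summed to 8643, 8680 and 8167 in WT and to 8056, 8008, 8522 and 7461 in edKO, so that edKO replicate 15 lay inside the WT range and the other 3 below it. The SD within a group was 0.582% to 11.7% of the mean in WT and 2.05% to 16.0% in edKO over the 16 genes.

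For 4 core genes, Cs, Dld, Sdhc and Mdh2, every edKO library lay below every WT library, 4 of 16 beside 9.04% of all genes. Sdhc, a membrane anchor of succinate dehydrogenase, had 405, 361 and 332 in WT and 290.4, 288, 330.3 and 308 in edKO. The gap between edKO replicate 15 and WT replicate 28 was small. Sdhc did not pass (limma log2 difference -0.26, interval -0.47 to -0.05, adjusted p = 0.156, 0.120 to 0.392 on leaving out a library). Its partners differed less: Sdha, the flavoprotein, stood at 978 ± 65.5 and 963 ± 108, Sdhb, the iron-sulfur subunit, at 571 ± 67.0 and 605 ± 25.6, and Sdhd, the other anchor, at 441 ± 30.6 and 418 ± 18.4.

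Dld, the lipoamide dehydrogenase shared by the pyruvate, 2-oxoglutarate and branched-chain ketoacid complexes, had 312, 339 and 319 in WT and 271, 284, 304 and 252 in edKO. It did not pass (limma log2 difference -0.22, interval -0.42 to -0.02, adjusted p = 0.209). Its groups were apart by less than the range within either. The 2 other subunits of the 2-oxoglutarate complex had negative differences as well. Ogdh, its first enzyme, stood at 717 ± 41.7 and 607 ± 97.3, the lowest library being edKO replicate 33 at 486 (log2 difference -0.25, interval -0.53 to 0.03). Dlst, its core, stood at 461 ± 23.4 and 421 ± 23.3 (log2 difference -0.13).

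Cs, citrate synthase, had 974, 979.9 and 900.2 in WT and 792, 850.2, 881 and 791 in edKO (limma log2 difference -0.20, interval -0.41 to 0.01, adjusted p = 0.277). Its edKO libraries were all under the lowest WT library. Mdh2, the mitochondrial malate dehydrogenase and the core gene with the highest level per length, had 1090.4, 1047 and 969 in WT and 940.1, 927, 924 and 966 in edKO (log2 difference -0.14 by limma, adjusted p = 0.449). Here edKO replicate 33 and WT replicate 28 almost met.

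The remaining core genes overlapped between the groups. Of the NAD-linked isocitrate dehydrogenase, Idh3a stood at 502 ± 36.5 in WT and 499 ± 52.8 in edKO, Idh3b at 459 ± 22.9 and 483 ± 23.9, and Idh3g at 412 ± 26.2 and 405 ± 25.9. Fh1, fumarase, stood at 441 ± 2.57 and 449 ± 49.0. Succinyl-CoA ligase joins a shared subunit, Suclg1 (344 ± 22.1 and 317 ± 12.0), to an ATP-forming subunit, Sucla2 (330.3 in WT on average and 326 in edKO, SD 14.4 and 22.5), or a GTP-forming subunit, Suclg2 (166 ± 4.14 and 170.3 ± 10.2). The ratio of Suclg2 to Sucla2 reads was 0.481 to 0.521 in WT and 0.495 to 0.556 in edKO, with overlap. Of the windows of Suclg2, 14.0% also occur in the pseudogene Gm15163. The limma adjusted p of the 16 core genes ran from 0.156 to 0.967.

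Entry of pyruvate gave no call among its 6 genes, beside 4.21% of all genes, with a median of -0.08. The 2 subunits of the carrier had differences of opposite sign. Mpc1 had 176, 132 and 126 in WT and 214, 184, 188 and 204.6 in edKO, all 4 edKO libraries above the highest WT library. It did not pass (limma log2 difference 0.46, SE 0.12, interval 0.20 to 0.72, adjusted p = 0.0527). Mpc2 had 179, 125 and 136 in WT and 147, 128, 132 and 138 in edKO, with overlap (log2 difference -0.09, interval -0.35 to 0.17). WT replicate 1 held the highest WT value of both genes. Within each library the ratio of Mpc1 to Mpc2 was 0.979, 1.05 and 0.928 in WT and 1.46, 1.44, 1.43 and 1.48 in edKO. These ratios did not overlap between the groups and, within each group, varied less relative to their mean than either gene alone. They carry no test, since the pair was fixed with earlier results known.

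Mpc1 lay close to the threshold and crossed it in 4 of 19 other fits: without WT replicate 1 (adjusted p = 0.0129), with library weights (0.0123), with quantile normalisation (0.044) and with DESeq2 on the recovered reads (0.0138). Over all 19 its adjusted p ran from 0.0123 to 0.211. Of its transcript windows 24.0% also occur elsewhere, most often in the pseudogene Mpc1-ps, and of those of Mpc2 none.

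None of the 4 genes particular to the pyruvate dehydrogenase complex was called. Pdhb, the beta subunit of its decarboxylase and the gene of this group with the highest level per length, had 571, 552 and 559 in WT and 545, 486, 568 and 500.5 in edKO, with overlap (limma log2 difference -0.10, adjusted p = 0.596). Pdha1, the alpha subunit that carries the regulatory phosphorylation sites, stood at 714 ± 23.8 and 714 ± 70.8. Dlat, the acetyltransferase core, stood at 285 ± 3.58 and 268 ± 27.4, and Pdhx, which tethers Dld to that core, at 71.1 ± 4.67 and 68.4 ± 9.71. The 95% intervals of these 4 genes and Mpc2 lay between -0.35 and 0.22.

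The isoforms outside the cycle proper did not pass. Idh2, the NADP-dependent mitochondrial isocitrate dehydrogenase, had the highest level per length of all 33 genes, 1176 ± 20.2 per kb of transcript in WT and 1182 ± 54.3 in edKO. Its levels were 2049.7, 2088 and 2017 in WT and 2128, 2065, 2129 and 1928 in edKO, which overlapped (limma log2 difference 0.01, interval -0.23 to 0.24). Idh1, its cytosolic counterpart, had 56.4, 57.3 and 55.9 in WT and 50.9, 50.5, 50.3 and 52.3 in edKO. The Idh1 groups did not overlap and were each very tight, yet the difference of -0.15 did not pass (limma adjusted p = 0.355). Idh2 exceeded Idh1 36.1 to 36.4 times in WT and 36.9 to 42.3 times in edKO, the value of replicate 33 being nearest to WT. Aco1, the cytosolic aconitase that also binds iron-responsive elements, stood at 54.3 ± 3.66 and 50.9 ± 5.57.

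The shuttle genes gave no call, beside 4.21% of all genes, and a median of 0.02. Mdh1, the cytosolic malate dehydrogenase, had the highest level per length of the 3 and stood at 1487, 1523 and 1327 in WT and at 1437, 1445, 1532 and 1332 in edKO, with overlap (limma log2 difference -0.01, interval -0.24 to 0.23). Got2, the mitochondrial aspartate aminotransferase, stood at 698 ± 28.1 and 707 ± 22.1, and 22.7% of its windows also occur in other genes. Got1, the cytosolic aminotransferase, had 304, 281 and 277 in WT and 413, 329, 401 and 293 in edKO. Replicates 5, 6 and 15 were above WT and replicate 33 was inside the WT range. Got1 did not pass (limma log2 difference 0.31, interval 0.04 to 0.57, adjusted p = 0.202). It was called without edKO replicate 33 (adjusted p = 0.0377) and with library weights (0.0368), within a range of 0.0368 to 0.42 over 19 fits. The ratio of Got2 to Got1 was 2.36 to 2.52 in WT and 1.73 to 2.31 in edKO, without overlap, and that of Mdh2 to Mdh1 0.687 to 0.733 and 0.603 to 0.726, with overlap.

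**Figure D3:**
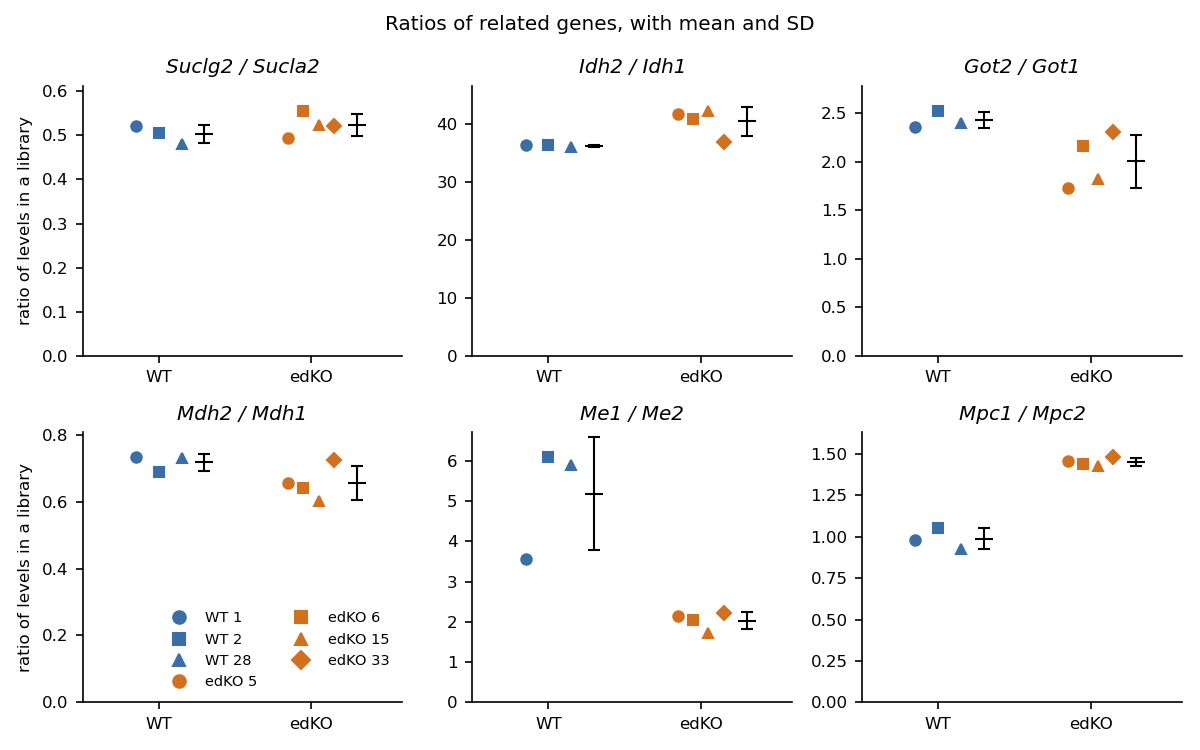
Ratio of the levels of 6 pairs of related genes within each library (points), with the mean and SD of each group (black), on axes from 0. The ratio of Mpc1 to Mpc2 is 0.928 to 1.05 in WT and 1.43 to 1.48 in edKO.

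Set side by side, the core cycle had a median of -0.05 with 0 of 16 genes called. The 8 malate-aspartate and anaplerotic genes had a median of 0.07 with 1 higher and 1 lower. Of all genes 4.21% were called. The range was -0.26 to 0.09 in the core cycle and -1.44 to 1.06 in the other list. No test was made of the difference between the lists. A limit of 0.3 on the absolute log2 difference was chosen after the values were seen. It held for 16 of 16 core genes and 5 of 8 of the others. The share was 75.5% over all genes and 81.4% over the 826 genes at least as abundant as Suclg2, the least abundant core gene. Of those 826 genes, 65 (7.87%) were called.

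Per kb of transcript Pcx, Me3 and Me2 were the lowest of the 33 genes in WT. The WT levels of the anaplerotic genes ran from 2.65 per kb for Pcx to 43.4 for Glud1, while the core cycle ran from 49.2 for Suclg2 to 711 for Mdh2 and pyruvate entry from 28.4 for Pdhx to 371 for Pdhb. Me1 was at 21.3 ± 1.37 per kb in WT and 7.75 ± 1.45 in edKO. Pcx, the lowest of the 33 in WT at 2.65 ± 0.247, reached 5.82 ± 0.698 in edKO. There Me2, Pcx and Me3 stood at 4.75 ± 0.631, 5.82 ± 0.698 and 6.12 ± 0.822. The ranges of mean ± SD overlapped between Me2 and Pcx and between Pcx and Me3.

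**Figure D4:**
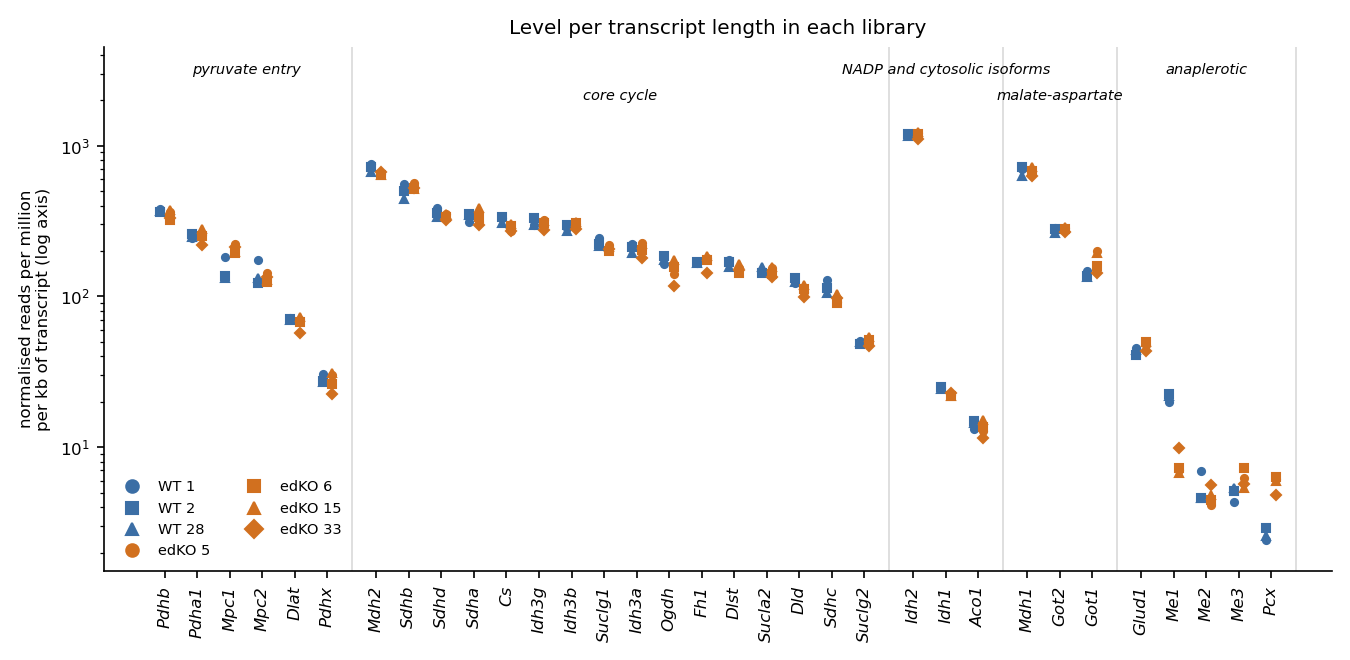
Normalised reads per 1000000 per kb of the longest principal transcript (log axis) for the 33 genes in each library, by role group and in order of the WT level. Pcx lies lowest at 2.65 and Me1 at 21.3 in WT on average, and Idh2 lies at the top at 1176.

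Of 42 measured genes around the pathway, 2 were higher, 2 lower and 38 did not pass, beside 4.21% of all genes called. The WT and edKO libraries did not overlap for 14 of the 42 (33.3%), beside 17.4% of all genes. Among 7 regulators of pyruvate dehydrogenase, Pdk4, a kinase that inactivates the complex, fell from 305.1 ± 30.9 to 87.3 ± 39.5 (limma log2 difference -1.91, adjusted p = 0.00536). For Pdk4 edKO replicate 33 lay farthest from WT, at 39.8 against 134.9, 78.5 and 96.2 in replicates 5, 6 and 15. Pdp2, a phosphatase that reactivates the complex, rose from 2.53 ± 0.694 to 5.18 ± 0.83 (limma log2 difference 0.82, adjusted p = 0.044). The call on Pdp2 was lost on leaving out each library but edKO replicate 33 (adjusted p up to 0.166), and with edgeR and voom, and Pdk4 missed with a robust prior (0.0543). Pdk1, Pdk2, Pdk3, Pdp1 and Pdpr did not pass.

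Among 7 genes of lipoate synthesis and its iron-sulfur supply, Iba57, which helps to build the iron-sulfur clusters of lipoate synthase, fell from 26.9 ± 4.06 to 11.1 ± 2.49 (limma log2 difference -1.21, adjusted p = 0.00253). Lias, the lipoate synthase itself, stood at 46.2 ± 1.94 and 54.3 ± 2.62 and did not pass (adjusted p = 0.177). Among 20 other genes of carbon entry and exit, Bckdhb, a subunit of the branched-chain ketoacid dehydrogenase that works with Dld, rose from 31.5 ± 4.00 to 64.8 ± 4.84 (limma log2 difference 1.02, adjusted p = 0.000434). Iba57 and Bckdhb were called in all 19 other fits. None of 6 carriers of cycle intermediates or 2 assembly factors of succinate dehydrogenase passed.

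The 4 edKO libraries did not contribute alike. Replicate 33, the deepest library, was the lowest of the 4 for 21 of the 33 genes and for 14 of the 22 genes of the core cycle and pyruvate entry, beside 31.0% of all genes of the table. Without it the core cycle median was -0.02 and that of pyruvate entry 0.0023, and Me1 and Pcx kept their calls. The summed level of 8 fibroblast markers was 5558 to 7052 in WT, and 3408, 5032, 3645 and 6965 in edKO replicates 5, 6, 15 and 33. That of 6 epicardial markers was 156 to 178 in WT, and 138, 136, 109 and 222 in the same edKO replicates. The 7 measured erythroid markers summed to 24103 to 40446 in WT and 27777 to 53861 in edKO, with overlap. Sums of 8 endothelial and 7 macrophage markers overlapped between the groups (999 to 1278 and 1116 to 1289, and 111 to 120 and 95.3 to 133). Of 8 adipocyte markers only Pparg was measured, at 5.76 ± 1.65 and 10.6 ± 3.07, with overlap (4.71 to 7.67 in WT, 7.15 to 14.3 in edKO) and no call. The part of these markers in the differences above was not tested, and in whole hearts fewer cells of a type and less RNA per cell cannot be told apart.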

How the data were processed

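Total RNA of separate biological replicates was amplified from 1 to 10 ng as cDNA and sequenced as 61-nt single reads, per the labels' protocols. The submitters' processing notes name the build GRCm38 and the tools cutadapt, limma and RSEM 1.3.1. Their order and the annotation release were not given in the sources at hand. The deposited signal is a table of normalised reads per 1000000. Tested on the values, each equals reads plus 0.5 over an effective library size, times 1000000, and 100% of 96516 values came out whole within 1e-06. Each gene had at least 1 read per 1000000 in 3 or more libraries. Levels low in both groups are therefore not analysed here. Such scaling hides a shift common to all genes.

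Differences were tested with limma 3.58.1 (R 4.3.3; 2-sided) over the 7 libraries, without covariates. The scale was log2(value + 1), the variance prior followed mean expression, and p-values were adjusted by Benjamini-Hochberg over 13788 genes. Folds on this scale understate changes of low genes. Intervals are 95% and unadjusted. Other fits used pseudocounts of 0.1 and 5, no variance trend, library weights, a robust prior, only genes with a mean of 5 or more or above the lower quartile, quantile normalisation, median centring, edgeR 4.0.16, DESeq2 1.42.0 and voom on recovered reads, and omission of each library. Fits were tested on simulated data. Positions and transcript lengths are from GENCODE M21 for GRCm38, which held 13716 of the identifiers. Per-kb levels divide by the longest principal transcript.

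The members and gene lists were chosen with earlier results of these data known. Each member was named. Values in every library were given for members that were called, had an unadjusted p under 0.05, did not overlap or led their group per length, and pathway genes were named when called. Lias and the regulators that did not pass were named after their values were seen. Results on some genes outside the members are not reported here. Python 3.11.15, pandas 2.3.3 and numpy 2.4.6 served for the tables.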

Additional observations from a re-analysis of the deposited data

Results flagged for a closer look

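Over the 4 edKO libraries 97 gene levels, ratios and summed lists were examined for a library standing far from the other 3, a distance that chance gives in about 5%, and 6 had such a library. In 5 of them it was edKO replicate 33, the deepest library. It was the low one for Pcca, a subunit of propionyl-CoA carboxylase (23.4, against 34.3 to 34.4 in the other edKO libraries), for Gpt2, the mitochondrial alanine aminotransferase (4.09 against 8.23 to 8.42), for D2hgdh, which oxidises D-2-hydroxyglutarate (19.7 against 27.1 to 28.5), and for Slc25a11, the 2-oxoglutarate carrier (252 against 276 to 279.7). It was the high one for the 8 smooth muscle and pericyte markers, which summed to 1867 against 1493 to 1532, inside the WT range of 1479 to 2280. Pdp1, a phosphatase of pyruvate dehydrogenase, was high in edKO replicate 6 (37.9 against 34.0 to 34.4). None of these 5 pathway genes was called by limma over all 7 libraries. The Gpt2 groups did not overlap (11.8 to 14.3 in WT), and its limma adjusted p was 0.0632. Gpt2 was called without edKO replicate 33 (limma adjusted p = 0.0239), with library weights and with DESeq2. No level of the 33 genes stood apart in this way.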

How the results depend on the processing

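Me1 and Pcx kept their direction and their calls in all 19 other fits. The number of genes called in the whole table was 370 without the trend, 1284 with library weights and 1052 with DESeq2, and 222 to 1177 on leaving out a library, against 580. Members called higher numbered 3 with library weights (Pcx, Mpc1 and Got1), 2 with quantile normalisation and with DESeq2 (Pcx and Mpc1), and 1 to 2 on leaving out a library. With Mdh2 moved to the shuttle and Dld to pyruvate entry, the median of the malate-aspartate and anaplerotic genes was 0.018 instead of 0.07. No called gene changed sign. Genes near 0 did: with library weights Pdha1 (0.032), Pdhx (0.020), Idh3a (0.041), Sucla2 (0.013), Sdha (0.0038) and Mdh1 (0.012), with quantile normalisation Pdha1 (0.018) and Mdh1 (0.037), and Pdha1 with edgeR (9.1e-05) and DESeq2 (0.0010). On leaving out a library the log2 difference ran from -0.20 to 0.062 for Mpc2, -0.067 to 0.059 for Idh3a, -0.069 to 0.030 for Mdh1, -0.24 to 0.035 for Me2, -0.057 to 0.061 for Pdha1, -0.13 to 0.026 for Pdhx, -0.053 to 0.027 for Idh3g, -0.10 to 0.026 for Sdha, -0.051 to 0.015 for Sucla2, -0.0091 to 0.039 for Idh2, -0.015 to 0.040 for Got2 and -0.021 to 0.10 for Fh1, each across 0 and none called. The causes were not tested. No paired analysis was possible because the groups share no replicate number. Levels of the 33 genes rest on 124 or more reads per library. Those of Pdp2 and Rxrg rest on fewer in every library, and that of Pparg on fewer in several. The reads were amplified without molecular identifiers, so counting error is a lower bound on the error.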
